A study of Mus musculus with 30 samples.

Results

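The genes examined here encode proteins of the contractile apparatus that mark myofibroblasts and smooth muscle cells: Acta2, Tagln, Cnn1, Myh11, Myl9, Tpm1, Tpm2, Actg2, Lmod1 and Myocd. They were taken by symbol from the count tables, where 10 of 55487 genes matched and none was missing. Of these, 9 averaged 1 or more reads per library and were tested, and Myocd was not. A myofibroblast is a fibroblast that has built bundles of actin and myosin and can pull on its matrix, and TGF-β is the factor best known to bring this about in the lung. Many of these genes are driven by serum response factor (Srf), which binds a DNA element called the CArG box together with the actin-sensing coactivators of the MRTF family or, in smooth muscle, with myocardin. Their products are filament actins (Acta2, Actg2), proteins that sit along or on the filament (Tpm1, Tpm2, Cnn1, Tagln, Lmod1), myosin chains (Myh11, Myl9) and the coactivator myocardin itself (Myocd).

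The cells came from lung organoids, in which 300000 Epcam+ cells of adult wild-type C57BL/6J mice, depleted of CD31+ and CD45+ cells, were grown in Matrigel with an equal number of CCL206 cells, a mouse lung fibroblast line whose division had been stopped with mitomycin C. Cultures received vehicle, TGF-β at 2 ng/ml, IPFc or EC for 72 hours. They were then taken apart with Epcam beads into an epithelial (Epcam+) and a fibroblast fraction, and each was sequenced as bulk RNA. IPFc is a cocktail modelled on idiopathic pulmonary fibrosis that holds TSLP, TNFα, CCL2, TGF-β and the interleukins IL-33, IL-13, IL-8, IL-4 and IL-1β. EC is modelled on an exacerbation of chronic obstructive pulmonary disease and holds IL-8, IL-6, IL-1β and TNFα, with KC as the mouse counterpart of IL-8 according to the methods of the study. The dose of TGF-β within IPFc is not given in the sources used here. All arms shared the CCL206 line, and the described organoid medium contained Y-27632, a kinase inhibitor that acts on the same actin machinery. The 30 libraries fall into 8 groups from 4 mice. The fibroblast fraction had 3 vehicle libraries (mice 1, 3 and 4) and 4 each of EC, IPFc and TGF-β, and the epithelial fraction had 4 each of vehicle, EC and IPFc and 3 of TGF-β (mice 2, 3 and 4). The labels number the mice that gave the epithelial cells. The fibroblasts are 1 line, so their replicates are separate cultures and not separate animals.

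Depth ranged from 5113828 to 20317181 counted reads per library, and levels are given as CPM, the reads of a gene per 1000000 counted reads. The fractions carried their labelled markers but were not pure. Col1a1, a collagen of fibroblasts, had a mean of 1348 CPM in fibroblast and 80.9 CPM in epithelial vehicle libraries, and Epcam 34.7 and 216 CPM. From the ratio between fractions of fibroblast reference genes (30 fixed genes, such as collagens), fibroblast RNA made up an estimated 5.99% ± 2.38 (SD, n = 4) of epithelial vehicle libraries, 11.6% ± 4.77 (n = 4) under EC, 11.3% ± 5.09 (n = 4) under IPFc and 28.1% ± 2.85 (n = 3) under TGF-β. The reverse estimate, epithelial RNA in fibroblast libraries, was 21.1% ± 8.46 (n = 3) for vehicle, 43.1% ± 10.1 (n = 4) for EC, 19.0% ± 9.11 (n = 4) for IPFc and 2.15% ± 1.25 (n = 4) for TGF-β. The epithelial vehicle library of mouse 2 and the fibroblast TGF-β library of mouse 1 had no partner library and were set against the mean of the other mice. Over the 3 cultures with both libraries the shares were 6.29% ± 2.82 and 2.44% ± 1.36. These shares moved with treatment, and their values are given beside the results they touch. Each is a ratio that takes the partner library as pure, although neither fraction was. A mixed partner makes the ratio read too high, and partners were not mixed alike, at 21.1% for vehicle and 43.1% for EC fibroblast libraries. The shares and the subtractions were not corrected for this. The fibroblast EC library of mouse 1, the shallowest of all, stood apart from the other EC fibroblast libraries (chi-square per degree of freedom over genes 72.8 to 76.9, against 10.4 to 28.7 among the others). Pecam1 and Ptprc, markers of endothelial and immune cells, had group means of at most 2.24 and 0.436 CPM. Other markers of these cells moved with treatment in the epithelial fraction, but not in 1 direction. Vwf had means of 2.76 CPM with vehicle, 7.42 CPM with IPFc and 1.65 CPM with TGF-β. Under TGF-β, Kdr went from 0.227 to 1.71 CPM and Csf1r from 0.462 to 1.62 CPM. Tie1 went down from 0.438 to 0.0177 CPM there, and Ptprc from 0.0853 to 0.0270 CPM. Summed over 9 endothelial and 10 immune markers, no library held more than 9.91 and 5.35 CPM.

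Because most of these genes were called higher under TGF-β, the CArG boxes near their start sites are shown first. RefSeq (GRCm38.p6) gave a window of 250 bases before to 50 bases after the start for 6 of the 10 genes: Acta2, Cnn1, Myl9, Tpm1, Tpm2 and Lmod1. The CArG box is CC, a run of A or T letters and GG, and reads the same on both strands. An exact box was found in 1 of the 6 windows and in 1.63% of 32851 promoter windows, and a box with at most 1 letter different in 4 of the 6 and in 21.1% of all windows. Cnn1 and Tpm2 had neither. The stretches below are 5′ to 3′ along the gene's own strand, with the 10 letters of the box in capitals.
Acta2, chr19:34255438-34255467, minus strand: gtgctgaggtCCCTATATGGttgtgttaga
Acta2, chr19:34255388-34255417, minus strand: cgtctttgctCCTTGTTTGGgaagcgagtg
Myl9, chr2:156775293-156775322, plus strand: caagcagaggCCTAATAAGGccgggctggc
Myl9, chr2:156775355-156775384, plus strand: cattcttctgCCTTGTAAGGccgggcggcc
Tpm1, chr9:67049415-67049444, minus strand: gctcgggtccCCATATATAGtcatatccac
Tpm1, chr9:67049274-67049303, minus strand: acaagcttttCCAAAAAAGTattggctgtc
Lmod1, chr1:135324614-135324643, plus strand: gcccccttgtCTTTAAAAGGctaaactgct
Lmod1, chr1:135324639-135324668, plus strand: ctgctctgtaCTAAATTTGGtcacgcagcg
The exact box is the first of Myl9, 161 bases before its start. The others differ from a box by 1 letter and lie 84 and 34 bases before the start of Acta2, 99 before that of Myl9, 221 and 80 before that of Tpm1, and 189 and 164 before that of Lmod1. Other annotated transcripts of these genes begin further upstream, so that in the GENCODE annotation 217 of the 250 upstream bases of Acta2, all 250 of Myl9 and of Tpm1, and 42 of Lmod1 lie in exons of the same gene. A match is a description of the letters and not evidence of binding.

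TGF-β raised most of the contractile genes in the fibroblast fraction. Of the 9 genes tested, 7 were higher than in vehicle and none was lower, with a median log2 fold change of 2.09 against -0.02 over all genes tested. Among all genes, 6.39% were called higher and 19.2% were called in either direction. In bulk RNA, a change in the number of cells of a type cannot be told apart from a change in RNA per cell.

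Acta2, which encodes smooth muscle α-actin, stood at 55.7, 55.9 and 43.5 CPM in the vehicle fibroblast libraries of mice 1, 3 and 4. Under TGF-β it was 490, 398, 577 and 340 CPM in mice 1 to 4. All TGF-β libraries lay far above all vehicle libraries, and the log2 fold change was 3.25 ± 0.14 (SE), or 9.54-fold (edgeR adjusted p = 7.0e-11). Actg2, the γ-actin of enteric smooth muscle, was scarce without TGF-β. Its vehicle libraries had 1.73, 1.01 and 0.128 CPM and its TGF-β libraries 18.9, 13.1, 19.0 and 11.6 CPM. The groups did not overlap, and the log2 fold change was 4.34 ± 0.40 (edgeR adjusted p = 3.6e-07).

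Tagln, the actin-bundling protein SM22, rose as strongly. It had 8.65, 8.13 and 2.88 CPM with vehicle and 115, 88.7, 121 and 73.0 CPM with TGF-β. Mouse 4 was the lowest in both groups, which were widely separated, and the log2 fold change was 4.22 ± 0.20 (edgeR adjusted p = 3.9e-10). Cnn1, or calponin, which binds actin and slows myosin, was close to the detection limit in vehicle, at 1, 5 and 2 reads, and had 44, 52, 65 and 46 reads with TGF-β. Summed over libraries these were 8 and 207 reads, a depth-adjusted ratio of 17.8 (95% interval 8.88 to 41.8, counting error only). The fitted log2 fold change of Cnn1 was 4.06 ± 0.63 (edgeR adjusted p = 1.2e-04).

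Myl9, a regulatory light chain of myosin II, had 21.1, 17.7 and 14.9 CPM in vehicle fibroblasts and 68.3, 65.4, 88.9 and 58.9 CPM with TGF-β. There was no overlap, and its log2 fold change of 2.09 ± 0.18 (edgeR adjusted p = 2.0e-07) was smaller than those of the actin and calponin genes. Tpm2, β-tropomyosin, had 212, 142 and 142 CPM with vehicle and 304, 240, 317 and 272 CPM with TGF-β. The highest vehicle library, that of mouse 1, lay just under the lowest TGF-β library, and the log2 fold change was 1.00 ± 0.22 (edgeR adjusted p = 0.0036). Lmod1, leiomodin, which starts new actin filaments, had 9.36, 7.58 and 7.82 CPM with vehicle and 18.1, 11.1, 16.9 and 8.52 CPM with TGF-β. Its groups overlapped at the TGF-β library of mouse 4, although TGF-β was above vehicle in each of the 3 mice with both libraries, and the log2 fold change was 0.80 ± 0.22 (edgeR adjusted p = 0.0179).

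Tpm1, α-tropomyosin, did not follow. It was the most abundant of the 10 genes in reads, at 756, 781 and 703 CPM with vehicle and 770, 766, 827 and 619 CPM with TGF-β, with overlapping groups and a log2 fold change of 0.12 ± 0.14 (edgeR adjusted p = 0.669). Myh11, the smooth muscle myosin heavy chain, was almost unread, with at most 4 reads in any fibroblast library, and its log2 fold change of 0.48 ± 1.14 (edgeR adjusted p = 0.837) carries little information. Myocd had no read in any fibroblast library of vehicle, EC or TGF-β and 1 read in the IPFc library of mouse 4. With 0 reads, a level of up to 0.180 to 0.244 CPM in the TGF-β libraries remains possible.

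**Figure D1:**
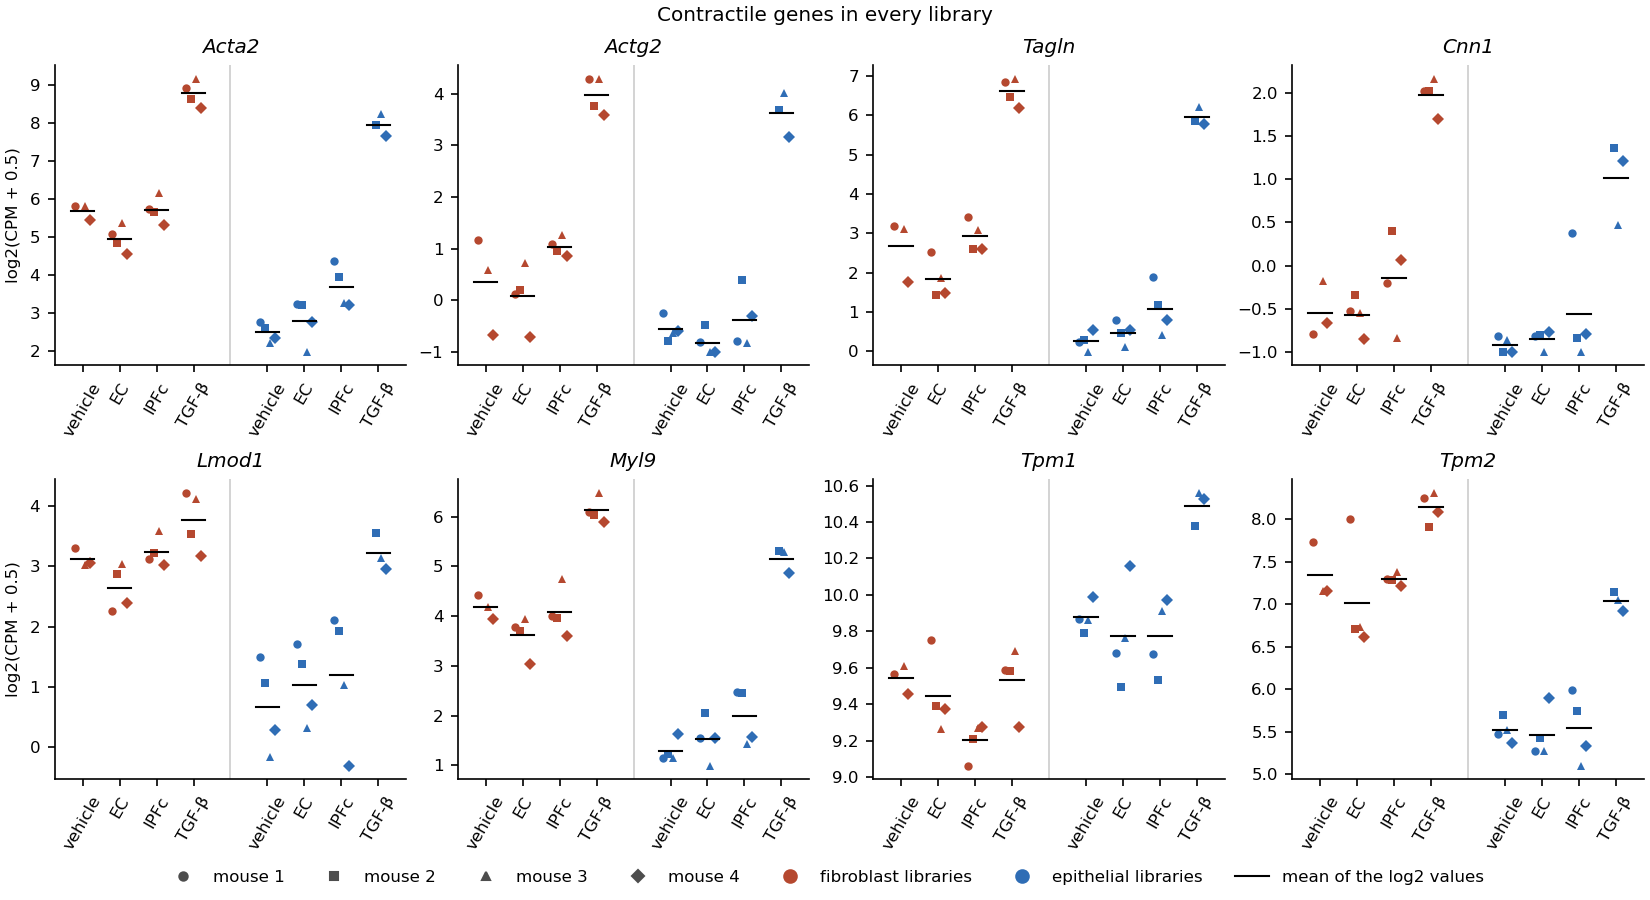
Level of 8 contractile genes in each of the 30 libraries, as log2(CPM + 0.5), by fraction and treatment, with a marker shape for each mouse and a bar at the mean of the log2 values. Acta2, Tagln, Actg2 and Myl9 separate the TGF-β libraries of both fractions from all the others, whereas Tpm1 is high in every group.

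The estimated epithelial share was 21.1% in vehicle and 2.15% in TGF-β fibroblast libraries. When that share was subtracted from the counts, Acta2 (log2 fold change 2.94 ± 0.17, edgeR adjusted p = 8.0e-06), Tagln, Cnn1, Myl9 and Actg2 were still called. Tpm2 (0.74 ± 0.29, edgeR adjusted p = 0.23) and Lmod1 (0.50 ± 0.33, edgeR adjusted p = 0.579) were not. Calls over all genes fell from 3457 to 866 with this subtraction, so a lost call is not particular to these genes. Tpm2 also lost its call without mouse 3 (edgeR adjusted p = 0.0645) or without mouse 4 (0.0507), and Lmod1 without mouse 3 (0.261).

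IPFc contains TGF-β, yet none of the 9 genes was called in IPFc fibroblasts against vehicle, where 0.449% of all genes were. None reached an unadjusted p of 0.05 in edgeR, and DESeq2 called none. Acta2 had 53.3, 49.8, 70.6 and 39.3 CPM in the IPFc libraries of mice 1 to 4. These values enclosed those of vehicle, and the log2 fold change was 0.09 ± 0.12 (edgeR adjusted p = 1). Tagln had 10.1, 5.62, 7.99 and 5.58 CPM, which also overlapped vehicle, with a log2 fold change of 0.35 ± 0.19 (edgeR adjusted p = 0.891). The lowest p belonged to Actg2, with 1.61, 1.42, 1.91 and 1.32 CPM and a log2 fold change of 0.93 ± 0.44 (edgeR adjusted p = 0.768). Tpm1 had 534, 591, 616 and 620 CPM, below its vehicle libraries, but was not called, with a log2 fold change of -0.29 ± 0.14 (edgeR adjusted p = 0.787).

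Set directly against TGF-β, IPFc fibroblasts had lower levels of 8 of the 9 genes, where 5.33% of all genes were called lower and 17.4% in either direction. This comparison uses the same TGF-β libraries as the one with vehicle. The log2 differences were -3.16 ± 0.12 for Acta2 (edgeR adjusted p = 2.0e-11), -3.87 ± 0.17 for Tagln (1.3e-10) and -3.41 ± 0.32 for Actg2 (5.6e-07). The smallest called ones were -0.65 ± 0.20 for Lmod1 (0.0337) and -0.41 ± 0.13 for Tpm1 (0.0382), and Myh11 was not called. With the epithelial share subtracted, 4 of the 8 calls were left, while calls over all genes fell from 3141 to 669. Lmod1 lost its call without any 1 of the 4 mice, and Tpm1 without mouse 2, 3 or 4.

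EC, the inflammatory cocktail without TGF-β, lowered 2 of the 9 genes in the fibroblast fraction, Acta2 and Tagln, where 2.84% of all genes were called lower and 7.11% in either direction. Acta2 had 33.2, 28.4, 41.2 and 22.8 CPM with EC. All were below the lowest vehicle library, and the log2 fold change was -0.64 ± 0.12 (edgeR adjusted p = 0.0048). Tagln had 5.28, 2.22, 3.16 and 2.28 CPM. The groups overlapped because the vehicle library of mouse 4 was low, but EC was below vehicle in all 3 mice with both libraries, with a log2 fold change of -0.87 ± 0.21 (edgeR adjusted p = 0.0199). Myl9 had 13.3, 12.5, 14.8 and 7.70 CPM, all under the vehicle range, and a log2 fold change of -0.53 ± 0.18 that missed the threshold (edgeR adjusted p = 0.0949).

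The estimated epithelial share was 43.1% in EC and 21.1% in vehicle fibroblast libraries, and with it subtracted neither gene was called (Acta2 log2 fold change -0.34 ± 0.15, edgeR adjusted p = 0.614, Tagln -0.53 ± 0.23, adjusted p = 0.602). Calls over all genes fell from 1284 to 33 with this subtraction, so the lost calls are not particular to these genes. Without mouse 4, Acta2 had an adjusted p of 0.139. Tagln lost its call without mouse 2 (0.0709), 3 (0.314) or 4 (0.0516). Without mouse 1, whose EC library stood apart, both remained called and Tpm2 joined them (log2 fold change -0.40, edgeR adjusted p = 0.0286). Tpm2 was at 256 CPM in that library and at 104, 105 and 97.1 CPM in the other EC libraries.

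**Figure D2:**
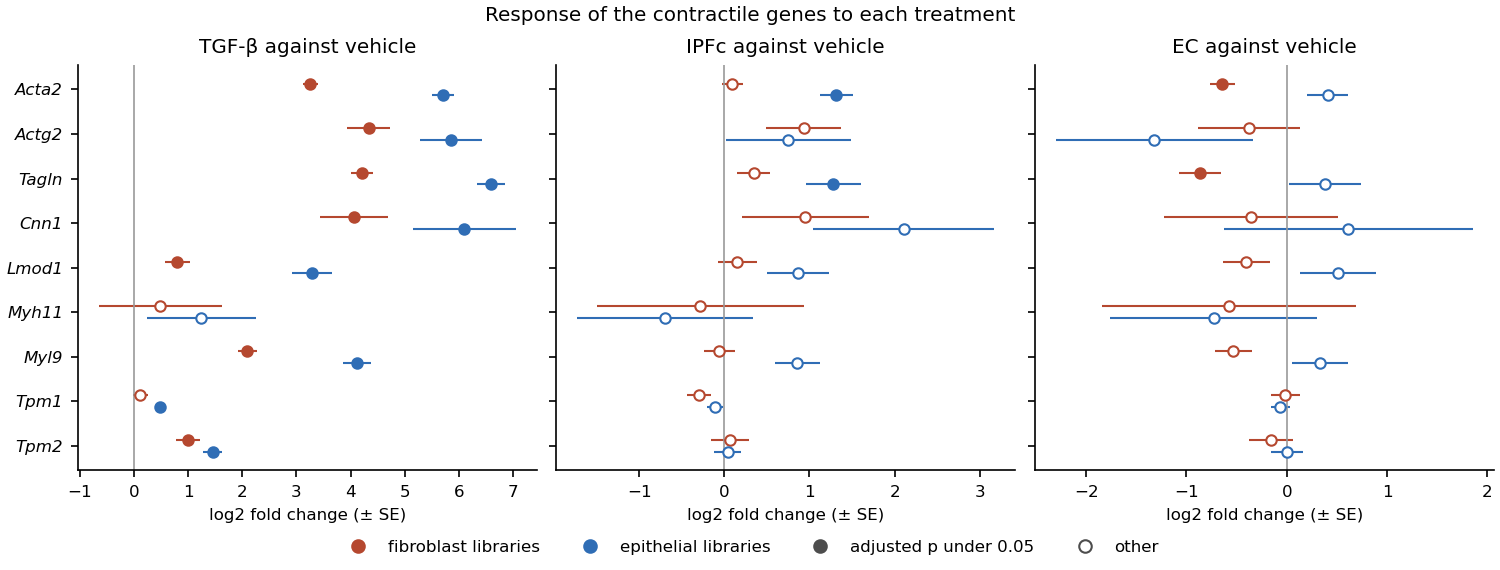
Log2 fold change against vehicle (points) with its standard error (bars) for the 9 tested genes, in a panel for each of TGF-β, IPFc and EC, with the fractions in separate colours and filled points for an edgeR adjusted p under 0.05. Under TGF-β, Acta2 lies at 3.25 in fibroblast and 5.71 in epithelial libraries, while under IPFc it lies at 0.09 and 1.31 and under EC at -0.64 and 0.41.

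In the epithelial fraction, TGF-β was followed by higher levels of 8 of the 9 genes tested, with a median log2 fold change of 4.12 against 0.03 over all genes tested. Here the background was large, since 21% of all genes were called higher and 41.1% in either direction. Acta2 had 6.34, 5.61, 4.13 and 4.60 CPM in the vehicle libraries of mice 1 to 4 and 249, 303 and 204 CPM in the TGF-β libraries of mice 2 to 4. The lowest TGF-β library lay far above the highest vehicle library, and the log2 fold change was 5.71 ± 0.20 (edgeR adjusted p = 6.7e-14). Tagln had 0.682, 0.721, 0.492 and 0.968 CPM with vehicle and 57.4, 73.6 and 55.0 CPM with TGF-β. It had the largest fitted change of the 10 genes, 6.60 ± 0.26 on the log2 scale (edgeR adjusted p = 2.5e-13).

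Actg2 was read 5, 1, 3 and 2 times in vehicle epithelial libraries and 233, 193 and 70 times with TGF-β. Summed, these were 11 and 496 reads, a depth-adjusted ratio of 68.4 (95% interval 37.9 to 138). The fitted log2 fold change was 5.86 ± 0.58 (edgeR adjusted p = 6.2e-08). Cnn1 had only 2 reads in all 4 vehicle libraries and 39, 11 and 15 reads with TGF-β, a ratio of 49.3 (95% interval 13.1 to 416). Its fitted log2 fold change of 6.10 ± 0.95 (edgeR adjusted p = 2.5e-05) depends on the prior count that edgeR adds.

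Myl9 had 1.71, 1.84, 1.72 and 2.58 CPM with vehicle and 39.4, 38.6 and 28.5 CPM with TGF-β. The vehicle libraries were close together apart from mouse 4, and the log2 fold change was 4.12 ± 0.25 (edgeR adjusted p = 8.7e-11). Lmod1 varied more between mice. It had 2.32, 1.60, 0.394 and 0.726 CPM with vehicle and 11.3, 8.34 and 7.25 CPM with TGF-β, without overlap, and a log2 fold change of 3.29 ± 0.37 (edgeR adjusted p = 4.2e-07).

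The tropomyosins, which epithelial cells also use, had the smallest changes among the genes called. Tpm2 had 43.8, 51.4, 45.4 and 40.9 CPM with vehicle and 141, 131 and 121 CPM with TGF-β, a log2 fold change of 1.45 ± 0.17 (edgeR adjusted p = 7.1e-07). Tpm1 had 933, 885, 931 and 1014 CPM with vehicle and 1328, 1510 and 1476 CPM with TGF-β, without overlap, a log2 fold change of 0.48 ± 0.10 (edgeR adjusted p = 8.0e-04). Myh11 had at most 5 reads in any library and was not called (edgeR adjusted p = 0.358), and Myocd had 0 reads in the TGF-β libraries, which allows up to 0.159 to 0.363 CPM. Its only epithelial reads were 1 in the vehicle and 4 in the EC library of mouse 2.

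Fibroblast RNA was estimated at 5.99% of epithelial libraries in vehicle and 28.1% under TGF-β, and fibroblasts under TGF-β were rich in these transcripts, so the levels were compared within each culture. In the TGF-β cultures of mice 2, 3 and 4 the epithelial level of Acta2 was 62.6%, 52.5% and 60.1% of the fibroblast level, where the fibroblast share was estimated at 26.8%, 26.1% and 31.3%. Tagln had ratios of 64.6%, 60.6% and 75.4% and Actg2 of 94.8%, 82.3% and 73.1%. Each of these lay above the share and above the ratios of at least 20 of the 22 fibroblast reference genes that could be used. Myl9 (43.4% to 60.2%), Tpm2 (41.5% to 58.6%) and Lmod1 (49.5% to 102%) were also above the share in all 3 cultures. Cnn1 was above it in 2 of them, with a ratio of 22.4% in mouse 3. Tpm1 was higher in the epithelial than in the fibroblast library, at 173% to 239%.

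**Figure D3:**
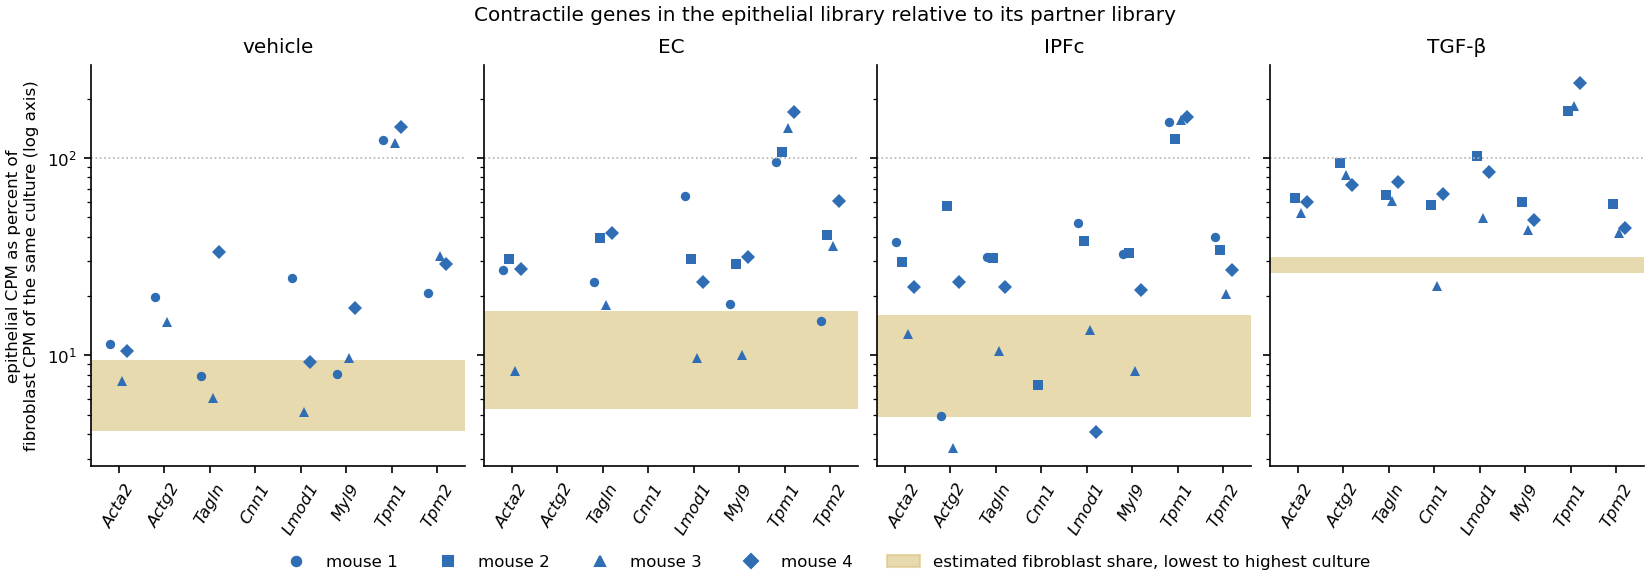
Epithelial CPM as a percentage of the fibroblast CPM of the same culture (log axis) for the contractile genes, in a panel for each treatment, with the range of the estimated fibroblast share as a band. A ratio was drawn where the fibroblast library held at least 10 reads of the gene and the ratio was above 0. Under TGF-β the Acta2 points lie at 52.5% to 62.6%, above a band of 26.1% to 31.3%.

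With the estimated share subtracted from the epithelial counts, 7 of the 8 genes were still called under TGF-β. Acta2 had a log2 fold change of 6.39 ± 0.40 (edgeR adjusted p = 2.3e-07), Tagln of 7.16 ± 0.56 (1.1e-06) and Tpm1 of 0.71 ± 0.11 (4.2e-04). Subtraction also shrank low vehicle counts, which for Tagln were 10, 9, 10 and 12 reads in mice 1 to 4. In mouse 1 the vehicle ratio of Tagln, 7.88%, was under the share of 9.48%, so no read was left. Acta2 had 93, 70, 84 and 57 vehicle reads, and its vehicle ratio was above the share in the 3 cultures with both libraries. Whether the larger changes of Acta2 and Tagln after subtraction reflect a stronger response was not tested. The call of Tpm2 was lost (0.72 ± 0.73, edgeR adjusted p = 0.521). Cnn1 lost its call too (edgeR adjusted p = 0.0822) when the share was estimated from Xist, where calls over all genes fell from 7400 to 3087. Both estimates assume that fibroblasts caught in the Epcam+ fraction have the RNA of the fibroblast fraction, and that the partner library is pure. The estimate from the reference genes also needs epithelial cells that do not express those genes, under TGF-β too, which was not tested. The Xist estimate needs epithelial cells without Xist. The methods of the study name male and female mice, and the sex of each donor was not tested. In the epithelial EC library of mouse 1 the Xist share was 45.84%, against 16.85% from the reference genes.

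Smooth muscle cells and pericytes also use these genes, and their markers moved with treatment in the epithelial fraction. Rgs5, a pericyte gene, had a mean of 1.27 CPM in epithelial vehicle, 7.82 CPM in epithelial IPFc and 18.0 CPM in epithelial TGF-β libraries, but only 0.0546 CPM in the fibroblast TGF-β libraries. It rose in the epithelial fraction under TGF-β (log2 fold change 3.64 ± 0.40, edgeR adjusted p = 2.77e-07) and under IPFc (2.55 ± 0.38, edgeR adjusted p = 2.96e-04). Des, a filament protein of muscle and pericytes, rose under TGF-β (2.82 ± 0.54, edgeR adjusted p = 2.59e-04), to a mean of 2.52 CPM. Over the 12 smooth muscle and pericyte markers, 9 had reads in epithelial TGF-β libraries, and their summed level was 193 to 212 CPM there and 26.4 to 48.7 CPM in epithelial vehicle. In fibroblast libraries it was 544 to 627 CPM with TGF-β and 275 to 363 CPM with vehicle. The sum alone therefore does not mark pericytes here, and it was not corrected for the fibroblast share, 28.1% in epithelial TGF-β libraries. Krt5, of basal cells, had a mean of 334 CPM in vehicle and 30.7 CPM in TGF-β epithelial libraries, with a wide spread between mice. The part of these cells in the contractile genes' levels was not tested.

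IPFc raised 2 of the 9 genes in the epithelial fraction, where 2.57% of all genes were called higher and 4.1% in either direction. Acta2 had 20.1, 14.8, 9.04 and 8.78 CPM with IPFc, all above the vehicle libraries, with a log2 fold change of 1.31 ± 0.19 (edgeR adjusted p = 2.4e-04). Tagln had 3.19, 1.75, 0.840 and 1.24 CPM, which overlapped vehicle in mouse 3, with a log2 fold change of 1.28 ± 0.32 (edgeR adjusted p = 0.0244). Myl9 (0.86 ± 0.26, edgeR adjusted p = 0.0779) was not called. The fibroblast share was 11.3% here and 5.99% in vehicle. With it subtracted, Acta2 was still called (1.91 ± 0.38, edgeR adjusted p = 0.024) and Tagln was not (0.429), and with the Xist estimate neither was. The Xist subtraction took the calls over all genes from 739 to 78. The call of Tagln was also lost without mouse 1 (edgeR adjusted p = 0.368) or mouse 2 (0.139).

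Against TGF-β, epithelial IPFc libraries were lower in 8 of the 9 genes, where 18.7% of all genes were called lower and 37.2% in either direction. The log2 differences ran from -0.59 ± 0.10 for Tpm1 (edgeR adjusted p = 1.3e-04) to -5.32 ± 0.24 for Tagln (1.5e-12), and that of Acta2 was -4.40 ± 0.19 (7.0e-13). With the Xist share subtracted, 3 of these calls were left, and Acta2 was at an edgeR adjusted p of 0.0589. Calls over all genes fell from 6713 to 2955 there.

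EC left no called change in the epithelial fraction for any of the 9 genes, where 4.41% of all genes were called. None reached an unadjusted p of 0.05 in edgeR, and DESeq2 called none. Acta2 had 9.00, 8.80, 3.44 and 6.23 CPM, around the vehicle range, with a log2 fold change of 0.41 ± 0.21 (edgeR adjusted p = 0.39). Tagln had 1.25, 0.873, 0.572 and 0.951 CPM and a log2 fold change of 0.38 ± 0.36 (edgeR adjusted p = 0.72), and Tpm1 720 to 1142 CPM and -0.06 ± 0.09 (edgeR adjusted p = 0.845).

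The difference between fractions in the response was tested directly as an interaction. For TGF-β, 4 of the 9 genes responded more in the epithelial than in the fibroblast fraction, where 27.5% of all genes were called and the median over all genes was 0.21. Lmod1 differed by 2.50 ± 0.43 on the log2 scale (edgeR adjusted p = 7.4e-05), Acta2 by 2.48 ± 0.25 (3.1e-08), Tagln by 2.41 ± 0.35 (7.9e-06) and Myl9 by 2.06 ± 0.33 (2.1e-05). Actg2 (1.54 ± 0.81, edgeR adjusted p = 0.172), Cnn1 (2.15 ± 1.18, 0.191) and the tropomyosins missed the threshold. These larger ratios started from lower vehicle levels, and the TGF-β level of Acta2 itself stayed higher in fibroblasts.

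For IPFc, only Acta2 differed between fractions (1.23 ± 0.25, edgeR adjusted p = 0.0291), where 0.229% of all genes were called. For EC, again only Acta2 did (1.04 ± 0.26, edgeR adjusted p = 0.0181), where 4.59% were. Neither call held after any of the share subtractions or without mouse 1, 2 or 4.

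Between fractions under vehicle, 7 of the 9 genes differed, 6 lower and 1 higher in epithelial libraries, where 56% of all genes were called. Acta2 was lower by 3.23 on the log2 scale (-3.23 ± 0.25, edgeR adjusted p = 2.7e-11), Myl9 by -3.12 ± 0.29 (8.6e-10) and Tpm2 by -1.71 ± 0.24 (7.1e-07). Tpm1 was the exception, at 0.48 ± 0.15 (edgeR adjusted p = 0.00805). Under EC and under IPFc the counts were again 6 lower and 1 higher, against 49.1% and 58.3% of all genes. Under TGF-β, 5 differed against 48.2% of all genes, and the differences were -0.84 ± 0.23 for Acta2 (edgeR adjusted p = 0.0031), -1.06 ± 0.25 for Myl9 (0.00102) and -0.60 ± 0.22 for Tagln (0.0245). The call of Tagln was lost without mouse 2 (edgeR adjusted p = 0.146) or 3 (0.083). Actg2 (-0.37 ± 0.39, edgeR adjusted p = 0.46) and Lmod1 (-0.56 ± 0.38, 0.23) were not called, while Tpm1 was higher by 0.86 ± 0.15 in epithelial libraries (2.0e-05).

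Across the 8 groups, mean Acta2 ran from 451 CPM in TGF-β fibroblasts to 252 CPM in TGF-β epithelial libraries, 53.3 CPM in IPFc and 51.7 CPM in vehicle fibroblasts, 31.4 CPM in EC fibroblasts, and 13.2, 6.87 and 5.17 CPM in IPFc, EC and vehicle epithelial libraries. The neighbours IPFc and vehicle fibroblasts, and EC and vehicle epithelial libraries, did not differ beyond their spread. For Tpm1 the order of the fractions was the opposite. Its mean was highest in the epithelial fraction, at 1438 CPM with TGF-β and 881 to 941 CPM otherwise, and lowest in IPFc fibroblasts at 591 CPM.

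CPM was divided by exon length for comparison between genes. The length joined all annotated exons of a gene, 8.08 kilobases for Tpm1 and 3.23 for Acta2, and can exceed that of a transcript. The order of the genes depends on this choice. In CPM without it, Tpm1 stayed above Acta2 in each TGF-β fibroblast library. In vehicle fibroblasts Tpm1 led with a level of 92.5 CPM per kilobase, followed by Tpm2 with 39.0, Acta2 with 16.0, Myl9 with 7.80 and Tagln with 3.21. Under TGF-β the level of Acta2 in fibroblasts was 140 CPM per kilobase, above Tpm1 at 92.3, Tpm2 at 66.9 and Tagln at 48.7. In the epithelial fraction Tpm1 led in every treatment. There Acta2 moved from 1.60 CPM per kilobase in vehicle to 78.1 with TGF-β, where it took the place of Tpm2 behind Tpm1 at 178. Cnn1 reached 1.27 in TGF-β fibroblasts, and Myh11 was at most 0.0324 in any group.

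**Figure D4:**
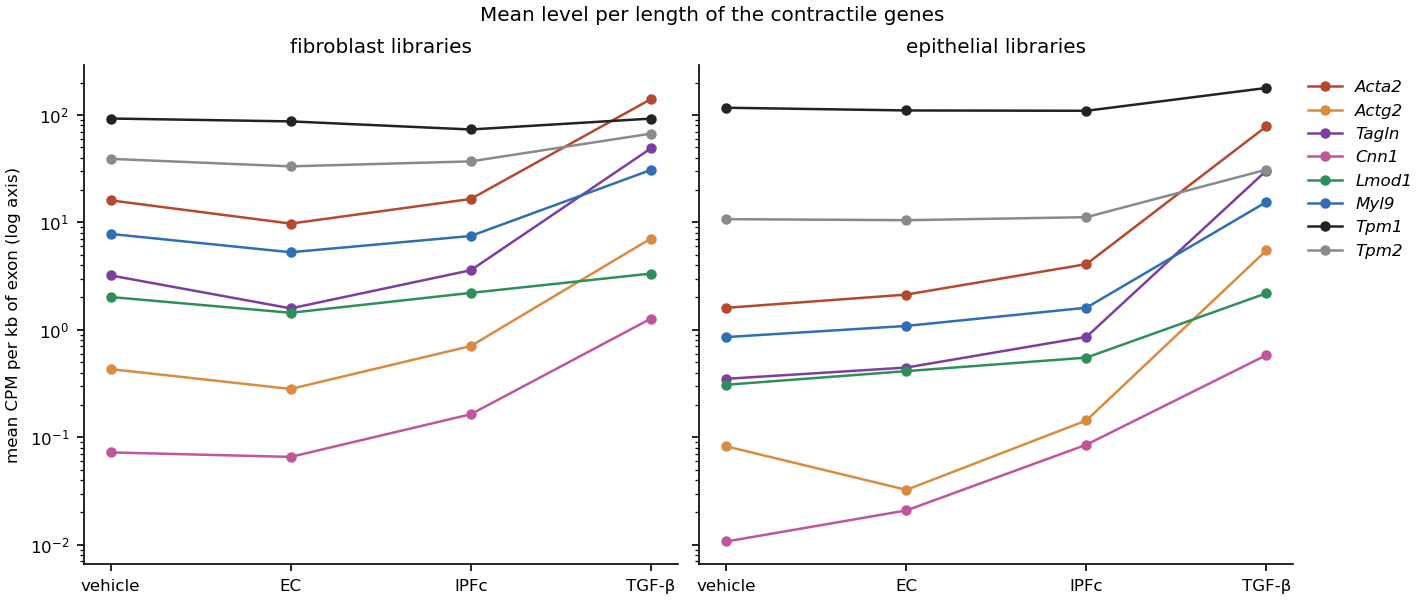
Mean level per kilobase of exon (CPM per kilobase, log axis) of the contractile genes by treatment, in a panel for each fraction; lines join the points of 1 gene and the treatments have no order. In fibroblasts Acta2 is at 16.0 with vehicle and at 140, above Tpm1, with TGF-β, while in epithelial libraries Tpm1 is on top in each treatment. The length joins all annotated exons of a gene, and the order of the genes depends on it.

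The genes whose level most resembled that of Acta2 were found by Pearson's correlation of log2 CPM over the 15 libraries of a fraction, as a description, since the TGF-β libraries set most of it. Ranked were genes with a mean of at least 10 CPM over those libraries. Tagln passed this limit only through TGF-β, as its mean was under 10 CPM in every other group of both fractions. Among 9555 genes in the fibroblast fraction they were Cald1 (0.989), Myl9 (0.986), Col1a1 (0.983), Tnnt2 (0.983) and Tagln (0.982). Among 9359 genes in the epithelial fraction they were Cald1 (0.994), Ccdc80 (0.993), Tagln (0.991), Ccn4 (0.990) and Nes (0.990). Cald1 encodes caldesmon, another actin-binding protein of contractile cells. Apart from Myh11, which had few reads, Tpm1 was the least like Acta2 among the contractile genes tested, with 0.327 in fibroblast and 0.742 in epithelial libraries. Without the TGF-β libraries the correlation with Acta2 in fibroblasts ranged over 11 libraries from 0.71 to 0.92 for Myl9, Lmod1, Tagln and Actg2, and was 0.454 for Tpm2, 0.103 for Cnn1, -0.184 for Tpm1 and -0.208 for Myh11. Over the 12 epithelial libraries without TGF-β it ranged from 0.131 to 0.895, except for Tpm1 at -0.461.

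The wider set of 29 contractile and actin-binding genes moved less uniformly. In TGF-β fibroblasts 8 of 28 tested were higher and 3 lower, with a median log2 fold change of 0.29, where 6.39% of all genes were called higher and 19.2% in either direction. Cald1 (1.45 ± 0.11, edgeR adjusted p = 6.33e-08), Palld, a scaffold of actin bundles (1.56 ± 0.15, 6.35e-07), and Smtn, smoothelin (1.18 ± 0.14, 5.39e-06), rose. Mylk, the kinase that phosphorylates myosin light chain, fell (-1.20 ± 0.14, edgeR adjusted p = 5.10e-06). In TGF-β epithelial libraries 12 of 27 were higher and 5 lower, where 21% of all genes were called higher and 41.1% in either direction. The leading genes were Cald1 (3.71 ± 0.16, edgeR adjusted p = 4.41e-13), Palld (2.56 ± 0.12, 2.33e-12) and Myh10, a non-muscle myosin heavy chain (1.62 ± 0.11, 5.74e-10). Under IPFc none was called in fibroblasts (0.449% of all genes were), and 1 was higher and 1 lower in epithelial libraries (4.1% of all genes were called). Under EC 2 were higher and 3 lower in fibroblasts (7.11% of all genes were called), and 1 was higher in epithelial libraries (4.41%).

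The cytoplasmic actins Actb and Actg1, picked out after their values were seen, went against Acta2 and Actg2 in the epithelial fraction under TGF-β. Actb fell by 0.70 on the log2 scale (-0.70 ± 0.10, edgeR adjusted p = 1.32e-05) and Actg1 by 0.61 (-0.61 ± 0.09, edgeR adjusted p = 2.70e-05). In TGF-β fibroblasts they were at 0.22 ± 0.15 (edgeR adjusted p = 0.348) and 0.21 ± 0.14 (0.333). Of the 50-base windows of Acta2, 0.202% also occur in Actg1 and none of those of Actg2 occur in another actin. Shorter or mismatched alignments were not examined.

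Among 26 genes of the MRTF and Srf pathway, 9 were higher and 2 lower in TGF-β fibroblasts, and 13 higher and 6 lower in TGF-β epithelial libraries, where 19.2% and 41.1% of all genes were called in either direction. Fhl2, an Srf cofactor (1.42 ± 0.15, edgeR adjusted p = 1.27e-06), Pdlim7 (1.11 ± 0.14, 1.47e-05) and Itga5, the fibronectin receptor chain (1.06 ± 0.19, 4.44e-04), rose in fibroblasts. Ccn1, a secreted matrix protein, fell there (-1.14 ± 0.16, edgeR adjusted p = 4.19e-05) and rose in the epithelial fraction (1.30 ± 0.09, 6.39e-10), where Itga5 (3.01 ± 0.18, 5.90e-11) and Pdlim7 (1.82 ± 0.13, 4.61e-10) also rose. Of the factors themselves, Mrtfa rose in fibroblasts (0.54 ± 0.18, edgeR adjusted p = 0.0409) and in epithelial libraries (0.77 ± 0.12, 4.05e-05). Srf was at 0.19 ± 0.20 in fibroblasts (edgeR adjusted p = 0.605) and fell in epithelial libraries (-0.71 ± 0.13, 1.57e-04). Under IPFc 5 of the 26 were higher and none lower in the epithelial fraction, where 4.1% of all genes were called, and none was called in fibroblasts, where 0.449% were. Under EC 1 was higher and 1 lower in fibroblasts, where 7.11% of all genes were called, and 1 was lower in the epithelial fraction, where 4.41% were.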

How the data were processed

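RNA of 30 libraries was measured by bulk RNA-seq. The authors trimmed reads with Trimmomatic 0.30, counted reads per Ensembl gene and deposited raw counts without normalization; the submitters' notes also name DESeq2 1.34.0. The labels give GRCm39 and the study's methods GRCm38 patch 6 as the genome. The aligner, the counter and its strand setting are not given in the sources used here. Acta2, Tagln, Cnn1, Myl9, Tpm1 and Lmod1 have a gene on the opposite strand, whose reads might not be separated.

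The deposited counts were tested with edgeR 4.0.16 (R 4.3.3): TMM normalization, genes with a mean count of at least 1, two-sided quasi-likelihood tests, Benjamini-Hochberg adjustment over all genes tested, threshold 0.05. Each fraction was fitted over its 4 treatments with the mouse as a block. Contrasts between fractions used all 30 libraries with group and mouse, and interactions used group and mouse within fraction. The scripts were tested on simulated data. Pairing comes from the labels, which give the mouse of each library. Deviations from group means correlated at 0.177 on average between libraries of the same mouse and -0.0584 between mice in the fibroblast fraction, and at 0.147 and -0.0484 in the epithelial fraction. Libraries of 1 group differed beyond sampling noise, and 0 columns of other samples were found.

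CPM was the count per 1000000 counted reads of the library. Intervals and limits (3 counts for a count of 0) cover counting error only, as no molecular identifiers are described. The fibroblast share of an epithelial library was the median ratio of epithelial to fibroblast CPM of the same culture (for libraries without a partner, the mean of the other mice) over fibroblast genes of at least 50 CPM. The Xist estimate, the epithelial share and all subtractions with them were added after seeing the data. Named were the 10 genes, up to 3 genes per direction of 2 further lists with a log2 fold change beyond 1, markers, and the 5 genes most like Acta2, plus Actb, Actg1, Mrtfa and Srf, which were chosen after their values were seen. A further gene of this rule is not reported here. The genes and lists were chosen with earlier results of these data known. Alternatives were DESeq2 1.42.0, its size factors, other filters, no block, pairwise fits, share subtraction and leaving out each mouse. Exon lengths came from GENCODE vM39, with all annotated exons of a gene joined. The data held no fibroblast vehicle library of mouse 2 and no epithelial TGF-β library of mouse 1. The study reports that 1 control fibroblast sample was excluded for low RNA quality.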

Additional observations from a re-analysis of the deposited data

Results flagged for a closer look

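Of 37 sets of values of 1 gene in 1 group of 4 libraries, 2 held a library far from the others by Dixon's criterion, which chance meets in about 1 of 20 groups. Myl9 was at 2.58 CPM in the epithelial vehicle library of mouse 4 and at 1.71 to 1.84 CPM in the other vehicle libraries. Tpm2 was at 256.4 CPM in the fibroblast EC library of mouse 1, the shallowest library, and at 97.1 to 105 CPM in the other EC libraries.

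The response differed between the fractions by the interaction test for 4 genes under TGF-β, with the epithelial minus the fibroblast log2 fold change at 2.481 for Acta2, 2.409 for Tagln, 2.058 for Myl9 and 2.497 for Lmod1. Under IPFc Acta2 differed by 1.226, and under EC by 1.045. The estimated fibroblast share of the epithelial libraries moved with the treatments, at 5.99% in vehicle, 11.6% with EC, 11.3% with IPFc and 28.1% with TGF-β. With it subtracted, 5 genes differed under TGF-β and none under IPFc or EC.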

How the results depend on the processing

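The direction and call of Acta2, Tagln, Actg2 and Myl9 under TGF-β against vehicle held in both fractions under every alternative run. In fibroblasts 5 to 7 of the 9 genes were called over all alternatives, and 5 to 7 when each mouse was left out. The 2 genes called under EC in fibroblasts became 0 without the mouse block, 1 in a fit of only the 2 groups, 0 with the epithelial share subtracted, and 0 to 3 when each mouse was left out. The 8 genes lower under IPFc than TGF-β in fibroblasts became 4 with the epithelial share subtracted. In the epithelial fraction the 2 genes called under IPFc became 1 without the block, 1 in a fit of the 2 groups, 1 with the fibroblast share subtracted and 0 with the Xist share, 3 without a filter, and 1 to 3 when each mouse was left out. The 8 lower under IPFc than TGF-β became 3 with the Xist share. The single interaction called under IPFc became 0 without the block and with each of the 3 subtractions, and 0 to 1 when each mouse was left out. That under EC behaved alike, except that 2 were called without a filter. The cause of these changes was not tested. Without the block, the only other call lost was that of Lmod1 for fibroblast IPFc against TGF-β.

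Tpm2 turned direction, without a call, to 0.175 (edgeR adjusted p = 0.952) for epithelial IPFc against TGF-β with the Xist share subtracted and to 0.075 (0.975) for fibroblast EC with the epithelial share subtracted. The Xist share was 19.24% ± 18.7 (SD, n = 4) in epithelial EC libraries, or 10.4% ± 7.21 (n = 3) without mouse 1, and 32.9% ± 7.12 (n = 3) in epithelial TGF-β libraries. Of 135 gene comparisons, 74 were called in the main fit or under at least 1 alternative, and 61 under none of these.

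Over all genes, counts of calls against vehicle were 3457 for fibroblast TGF-β (866 to 4089 over the alternatives), 81 for IPFc (7 to 251) and 1284 for EC (33 to 2053), and in the epithelial fraction 7400 (3087 to 7674), 739 (78 to 1118) and 794 (120 to 1172). IPFc against TGF-β gave 3141 (669 to 5197) and 6713 (2955 to 6752), and the interactions 5054 (2980 to 5585), 42 (3 to 288) and 843 (10 to 1372). Depth limits Cnn1, which had few reads outside TGF-β, and Myh11 and Myocd, which had few or no reads in every group. Share estimates assume 1 RNA profile per fraction, a pure partner library and reference genes that the cells of the other fraction do not express.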
